A study of Mus musculus with 2 samples.

Results

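The myosin light chains and the kinases that phosphorylate them were followed in adult mouse gastrocnemius, the large calf muscle. The 10 genes were chosen by symbol as a gene family, not by their values, although earlier results of these data were known. Mylpf, Myl2 and Myl9 encode regulatory light chains, Myl1, Myl3, Myl4, Myl6 and Myl6b encode essential light chains, and Mylk and Mylk2 encode kinases. All 10 were found among the 55536 genes listed, and all 10 had enough reads to be tested. The study comprised 1 group of 2 total RNA libraries, called replicate 1 and replicate 2. Both came from gastrocnemius of male B6CASTF1/J mice, hybrids of the B6 and CAST strains, at an age of 2 months. No treatment is labelled. The starting material was 300 ng of RNA for each library, to which ERCC spike-ins were added. The labels name 2 tissue samples under 1 donor entry and do not say that these were separate animals, so SDs measure only the spread between the samples, which may in part be technical, and p-values hold counting error alone.

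Muscle myosin is a motor whose heavy chain carries an essential and a regulatory light chain on the neck that works as its lever arm. Phosphorylation of the regulatory chain by a calcium- and calmodulin-dependent kinase starts contraction in smooth muscle, and in skeletal muscle it strengthens the force of contraction. Myosin phosphatase removes the phosphate. Fast and slow skeletal fibres, heart, smooth muscle and nonmuscle cells use different genes for each chain.

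Fast light chains led by far. Mylpf and Myl1 together held 96.2% of the 10 genes' TPM (a relative level corrected for transcript length) in replicate 1 and 91.2% in replicate 2. Mean TPM of the most and the least abundant gene, Mylpf and Myl4, differed by a factor of 8488. Between the libraries, the slow fibre chains Myl2 and Myl3 were more than 2-fold higher in replicate 2, while Mylpf, Myl1 and Mylk2 were 1.27- to 1.36-fold higher in replicate 1.

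Genes held 42724520 expected counts in replicate 1 and 42280091 in replicate 2. Each library was deposited with 2 kinds of table, called the first tables, which hold expected counts and TPM for genes and transcripts, and the second tables, which hold estimated counts and TPM for transcripts. Values are those of the first tables unless the second are named. The libraries differed by more than counting error, with a chi-square of 71.6 per degree of freedom over 14827 genes. An exact two-sided conditional binomial test with Benjamini-Hochberg adjustment called 25.8% of the 14827 genes tested at an adjusted p under 0.05, of which those higher in replicate 2 were 14.3% and those higher in replicate 1 were 11.5% of genes tested. A further limit of 2-fold left 3.07%. This test has counting error only and compares these libraries, not conditions.

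By the same test 8 of the 10 light chain and kinase genes were called. Of these, 3 were higher in replicate 2 (Myl2, Myl3 and Myl6b) and 5 in replicate 1 (Mylpf, Myl1, Myl6, Myl9 and Mylk2). Myl2 and Myl3, 2 of 10, were also past 2-fold, and Myl4 and Mylk were not called. The median log2 ratio of the 10 genes, coded as replicate 2 over replicate 1, was -0.17, against 0.0013 over all genes tested. Abundant genes are called at small differences under counting error alone, so that the size of each ratio carries more than its call.

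**Figure D1:**
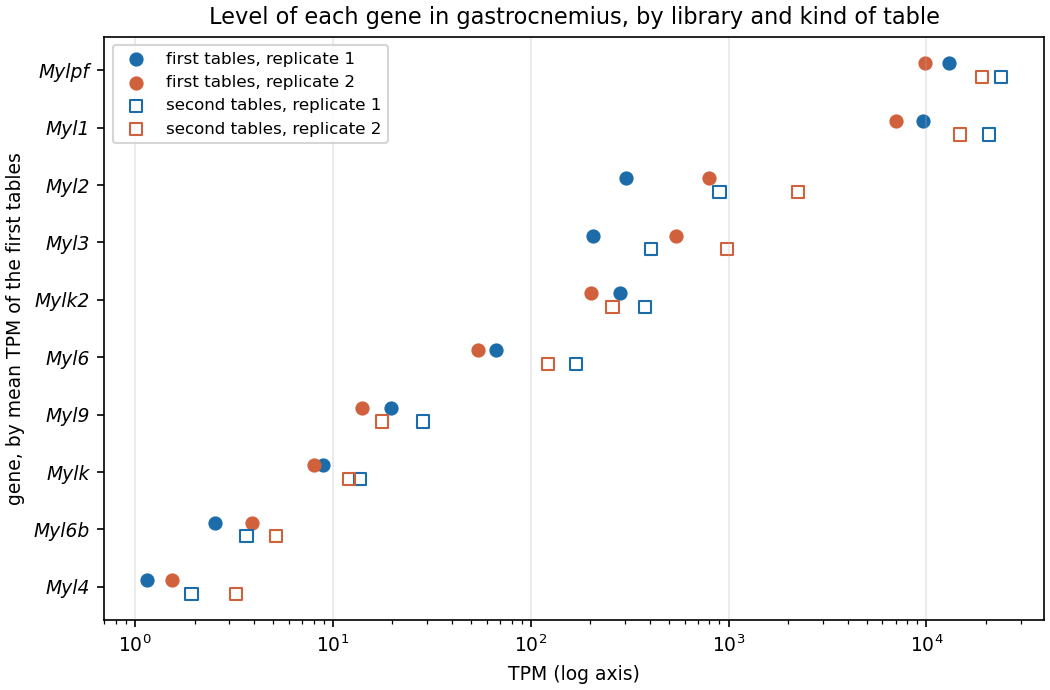
TPM of each of the 10 genes on a log axis, with filled circles for the first tables, open squares for the second tables, blue for replicate 1 and orange for replicate 2. Mylpf and Myl1 lie well to the right of the other genes in both kinds of table, at 7040 TPM or more, and Myl4 lies lowest, at 1.15 to 3.23 TPM.

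Mylpf, the fast skeletal regulatory light chain, had the highest TPM of the 10 genes. It lies on chromosome 7 (mm10, 127208890 to 127214298, plus strand) and stood at 12950 TPM (replicate 1) and 9798 TPM (replicate 2), or 11374 ± 2229 TPM (SD, n = 2), from 202650 and 154765 expected counts. Among 21951 protein-coding genes it had rank 5 in each library. Its place above Myl1 depended on the processing, since its mean fell to 7563 TPM without its transcripts under 300 nt (a setting chosen after seeing the data), below the 8355 TPM of Myl1, and its expected counts were below those of Myl1. The log2 ratio was -0.34 (95% interval -0.35 to -0.33), with an adjusted p too small to be held as a number.

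The coding sequence of Mylpf is annotated with 2 start codons, and the transcripts that carry them begin 2709 bases apart. Mylpf-201 encodes 169 residues. Mylpf-206 begins upstream, lacks the exon that holds the first start codon, and encodes 149 residues from the second. The start of the Mylpf-201 coding sequence is shown because these 60 bases before the second start codon are what sets the proteins apart. It is from GENCODE M21, and capitals mark the start codon of Mylpf-206.
Mylpf-201: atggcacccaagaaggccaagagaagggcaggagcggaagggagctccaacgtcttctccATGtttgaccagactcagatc

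Mylpf-206 stood at 5116 and 4181 TPM in replicates 1 and 2, above Mylpf-201 at 3409 and 2418 TPM. Another transcript, Mylpf-203, a retained-intron record of 285 nt that covers only the end of the gene, was given 4157 and 3004 TPM. The second tables had Mylpf-203 at 0 and Mylpf-206 at 11322 and 9497 TPM. They also gave 7535 and 7322 TPM to Mylpf-205, an upstream-starting record that carries the first start codon and ends after 92 codons, while the first tables had it at 0.43 and 0.23 TPM. Transcripts with the upstream start (Mylpf-205 and Mylpf-206) thus held 39.5% and 42.7% of Mylpf TPM in the first tables, and 79.0% and 87.6% in the second. The shares differed more between kinds of table than between libraries. The share of the shorter protein depended on the table, although Mylpf-206 exceeded Mylpf-201 in both libraries and in both kinds of table.

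The 250 bases before the start of Mylpf-201 are shown as the RefSeq window of the highest gene (GRCm38.p6, chr7:127211358-127211607, plus strand). No window was matched to the upstream start, whose transcripts held more TPM than Mylpf-201 in both kinds of table. Capitals mark the single match to the motifs searched, an E box (CANNTG), the kind of site that muscle basic helix-loop-helix factors bind, whose first base lies 51 bases before the start.
Mylpf promoter: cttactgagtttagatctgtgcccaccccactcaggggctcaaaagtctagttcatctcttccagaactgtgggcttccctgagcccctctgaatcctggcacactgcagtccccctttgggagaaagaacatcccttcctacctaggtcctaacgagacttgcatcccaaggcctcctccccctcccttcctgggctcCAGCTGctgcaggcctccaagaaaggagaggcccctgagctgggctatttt

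Motifs were searched on both strands and were the E box, the TATA box (TATAAA), the MCAT element (CATTCC), the MEF2 site and the CArG box. Of 32851 RefSeq windows of 250 bases, 66.2% held an E box, 12.4% a TATA box, 12.6% an MCAT element, 2.92% a MEF2 site and 1.47% a CArG box. A match describes the letters and is not evidence of binding. RefSeq windows were matched for 9 of the 10 genes (11 windows).

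Myl2, the regulatory light chain of slow fibres and of the heart ventricle, was lower than Mylpf and differed most between the libraries. On chromosome 5 (122100951 to 122113472, plus strand), it stood at 304 TPM (replicate 1) and 800 TPM (replicate 2), from 5282 and 13956 expected counts. Replicate 2 was 2.73-fold higher, a log2 ratio of 1.45 (95% interval 1.40 to 1.50), and the adjusted p was too small to be held as a number. Its rank among protein-coding genes was 139 in replicate 1 and 55 in replicate 2. The deduced Mylpf and Myl2 proteins shared 74.7% of aligned residues.

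As a share of the sarcomeric regulatory light chain TPM, that is of Mylpf and Myl2 together, Mylpf held 97.7% in replicate 1 and 92.5% in replicate 2 (95.1 ± 3.71%, SD, n = 2). The second tables gave 96.4% and 89.5%. The fast chain prevailed in both libraries, and its share was lower in replicate 2 in both kinds of table.

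Of the Myl2 transcripts, Myl2-201, which encodes the full protein, held 69.9% and 71.1% of the gene's TPM. Myl2-210, a noncoding record, held 28.9% and 27.8%. In the second tables Myl2-201 held 40.1% and 39.5%, with Myl2-208 and Myl2-209, which stood at 1.69 TPM or less in the first tables, at 205 and 505 TPM and at 179 and 444 TPM. Every one of these 4 transcripts was higher in replicate 2 in the second tables, as were Myl2-201 and Myl2-210 in the first. The RefSeq windows of Myl2 lie 8227 and 7762 bases upstream of the annotated start of Myl2-201, so none is shown.

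Myl1, the fast skeletal essential light chain, came next to Mylpf in TPM. On chromosome 1 (66924295 to 66945404, minus strand), its level was 9670 TPM (replicate 1) and 7040 TPM (replicate 2) (8355 ± 1860 TPM, SD, n = 2), from 249415 and 183077 expected counts. Its log2 ratio was -0.40 (95% interval -0.41 to -0.39), with an adjusted p too small to be held as a number. A processed pseudogene, Mylf-ps on chromosome 12, matches a Myl1 transcript at 99.3% over 421 nt. It held 674 and 471 expected counts, 0.270% and 0.257% of those of Myl1, and the split of reads between them is uncertain.

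The gene makes a long and a short essential light chain from 2 starts that lie 9789 bases apart (Myl1-201 and Myl1-202). The long form has 188 residues and the short form 150. They share the last 423 coding bases and differ only in what precedes them, 141 bases in the long form and 27 in the short. Both coding starts are shown because they are the part that tells the forms apart, from GENCODE M21, with the first 24 shared bases in capitals.
Myl1-201: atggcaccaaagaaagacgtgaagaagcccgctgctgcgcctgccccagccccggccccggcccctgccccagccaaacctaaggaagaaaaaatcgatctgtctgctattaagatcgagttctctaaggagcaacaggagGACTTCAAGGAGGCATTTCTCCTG
Myl1-202: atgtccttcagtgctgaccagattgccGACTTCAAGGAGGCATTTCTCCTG

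In the first tables the short form prevailed. Myl1-202 stood at 7184 and 5146 TPM in replicates 1 and 2, and Myl1-201 at 2092 and 1631 TPM. The long form made up 22.6% of coding Myl1 TPM in replicate 1 and 24.3% in replicate 2 (23.4 ± 1.19%, SD, n = 2). In the second tables it made up 39.3% and 38.8%. There 2 further records took much of the gene's TPM. Myl1-206, which has the long form's start codon and ends after 124 codons, was at 5623 and 4291 TPM. Myl1-207 was at 7992 and 5366 TPM. It has a first exon of its own in place of the one that holds the short form's start codon. It shares the later exons of the short form and is annotated with 92 codons from a later start codon. The first tables had Myl1-206 at 9.90 and 21.03 TPM and Myl1-207 at 17.4 and 6.87 TPM. With Myl1-207 counted as a short-form record, short-form records held more than long-form records in both libraries and both kinds of table. In the second tables the order turned when Myl1-207 was left out and Myl1-206 kept, with the long form at 63.8% and 60.7%. With Myl1-201 and Myl1-202 alone, the long form made up 35.6% and 28.2% there. Both settings were chosen after seeing the data.

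**Figure D2:**
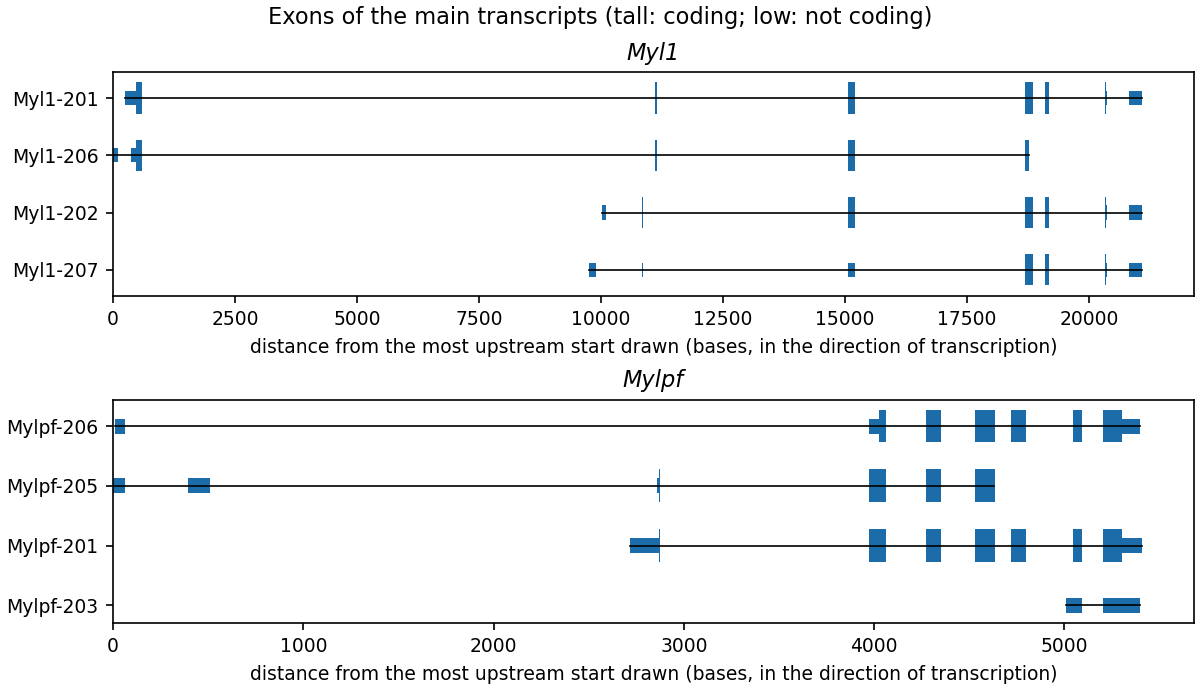
Exons of the main Myl1 and Mylpf transcripts by distance in bases from the most upstream start drawn, with tall boxes for coding parts, low boxes for noncoding parts and lines for introns. The long form Myl1-201 begins 9789 bases before the short form Myl1-202, and Mylpf-206 begins 2709 bases before Mylpf-201.

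The RefSeq window of Myl1, near the long-form start, held an E box, a TATA box and an MCAT element. These begin 224, 95 and 80 bases before the RefSeq start. The nearest annotated start in GENCODE, that of Myl1-201, lies 87 bases upstream of the RefSeq start. The MCAT element therefore lies within the first annotated exon of Myl1-201, not before it.

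Myl3, the essential light chain of slow fibres and of the heart ventricle, moved with Myl2. It lies on chromosome 9 (110741861 to 110769798, plus strand), and stood at 207 TPM (replicate 1) and 543 TPM (replicate 2), from 5964 and 15644 expected counts. Replicate 2 was 2.71-fold higher, a log2 ratio of 1.44 (95% interval 1.40 to 1.48), again with an adjusted p too small to be held as a number. The intervals of the Myl2 and Myl3 log2 ratios overlap. Myl2 over Myl3 was 1.47 in TPM in each library, and 2.22 and 2.28 in the second tables. The deduced short form of Myl1 and Myl3 shared 76.0% of aligned residues. Myl3-201 held 99.6% and 99.4% of the gene's TPM. In the second tables its share was 62.0% and 66.9%, with the rest almost wholly on Myl3-205, at 153 and 322 TPM there and at 0 in the first tables.

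The window before Myl3 is shown because it belongs to the pair that differed most between the libraries and held several matches. It is from RefSeq (GRCm38.p6, chr9:110763428-110763645, plus strand) and ends where the GENCODE exon of Myl3-201 begins. No window was matched to the upstream start of Myl3-205, at 110741861. That record held 37.6% and 32.6% of the gene's TPM in the second tables and 0 in the first. Capitals mark an E box, 2 MCAT elements (the first on the minus strand) and a CArG box, which begin 189, 177, 149 and 85 bases before the RefSeq start. No matches overlap.
Myl3 promoter: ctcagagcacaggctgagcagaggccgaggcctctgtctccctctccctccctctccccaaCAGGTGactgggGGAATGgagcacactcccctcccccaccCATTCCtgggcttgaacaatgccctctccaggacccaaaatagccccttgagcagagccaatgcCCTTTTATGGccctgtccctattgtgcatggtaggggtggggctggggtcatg

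Other slow fibre genes differed in the same direction as Myl2 and Myl3. Of 6 slow fibre markers (Myh7, Tnni1, Tnnt1, Tnnc1, Atp2a2 and Pln), 6 were called higher in replicate 2 and 6 were past 2-fold, and their summed level was 738 TPM (replicate 1) and 1853 TPM (replicate 2). Of 6 skeletal fibre markers, a list that includes fast fibre genes, 5 were called higher in replicate 1 and 0 in replicate 2. Their median log2 ratio was -0.16, with sums of 64169 and 53757 TPM beside the lower Mylpf and Myl1 of replicate 2. Of 8 heart markers, Nppa, Nppb, Myl7, Nkx2-5 and Gata4, 5 in all, had 0 reads in either library in the first tables. Such a count is compatible with up to 3 reads, and the second tables gave Gata4 0.274 and 0.130 TPM. The summed heart list was 42.8 and 105 TPM, of which Myh6 was 42.6 and 105 TPM. The part of fibre type content in the differences of Myl2 and Myl3 was not tested, and in bulk tissue fewer fibres of a type and less RNA per fibre cannot be told apart.

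Set against heavy chain RNA, the slow light chains stood at nearly the same ratio in both libraries. Myl2 over Myh7, the slow heavy chain, was 1.49 in replicate 1 and 1.51 in replicate 2, and Myl3 over Myh7 was 1.02 and 1.03. Mylpf over the summed adult fast heavy chains (Myh1, Myh2 and Myh4) was 1.05 and 0.937, and Myl1 over the same sum was 0.784 and 0.673. Each ratio was higher in the second tables, at 4.50 and 4.83 for Myl2, 2.03 and 2.12 for Myl3, 1.41 and 1.36 for Mylpf, and 1.23 and 1.05 for Myl1. Mylpf and Myl1 were lower against their heavy chains in replicate 2 in both kinds of table.

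**Figure D3:**
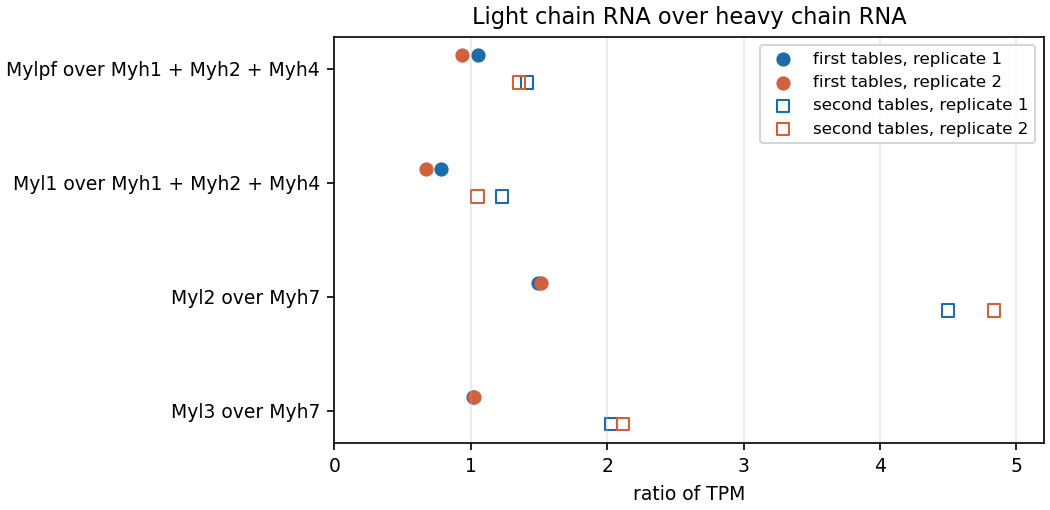
TPM of each light chain over TPM of the heavy chains named beside it, with filled circles for the first tables, open squares for the second, blue for replicate 1 and orange for replicate 2. Myl3 over Myh7 lies at 1.02 and 1.03 in the first tables, where the circles of the libraries nearly coincide, and at 2.03 and 2.12 in the second.

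Myl4, the essential light chain of embryonic skeletal muscle and of the heart atrium, was the lowest of the 10 genes. On chromosome 11 (104550663 to 104595753, plus strand), its level was 1.15 TPM (replicate 1) and 1.53 TPM (replicate 2), from 29 and 37 expected counts. The log2 ratio was 0.39 (95% interval -0.34 to 1.15, adjusted p = 0.553 by the exact binomial test), so that a difference was not detectable at this depth. The retained-intron record Myl4-204 held 52.2% and 56.9% of this TPM, which left 0.52 and 0.65 TPM on coding records. The second tables gave it 16.5% and 66.6%, and coding records held 1.57 and 1.07 TPM, so that the makeup depended on the table.

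Among the sarcomeric essential light chains Myl1, Myl3 and Myl4, Myl1 held 97.9% of TPM in replicate 1 and 92.8% in replicate 2 (95.4 ± 3.59%, SD, n = 2), and 98.1% and 93.8% in the second tables. Regulatory over essential sarcomeric light chain TPM was 1.34 and 1.40 (1.37 ± 0.0393, SD, n = 2). It was 1.17 and 1.35 in the second tables, and 0.814 and 0.849 where expected counts, which are not corrected for length, were used. Mylpf-203 and the other Mylpf records under 300 nt bear on this ratio, which had a mean of 0.935 without them, a setting chosen after seeing the data. Whether regulatory or essential light chain RNA was in excess therefore depended on the processing.

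Myl6, the essential light chain of nonmuscle and smooth muscle myosin, was the highest in TPM of Myl6, Myl6b and Myl9. It lies on chromosome 10 (128490860 to 128494145, minus strand), and 11 bases separate its start from the end of Myl6b. Its level was 66.9 TPM (replicate 1) and 54.4 TPM (replicate 2), from 1701 and 1313 expected counts. The log2 ratio was -0.32 (95% interval -0.43 to -0.22, adjusted p = 1.08e-08 by the exact binomial test). Of 5 processed pseudogenes that match Myl6 transcripts at identities of 97.0% to 99.3%, Gm5526 on chromosome 1 held reads, 185 and 142 expected counts. These equal 10.9% and 10.8% of those of Myl6, so that the split between them is uncertain.

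Myl6-201 and Myl6-206 encode proteins of 151 residues each. An exon of 45 bases in Myl6-206, absent from Myl6-201, ends its coding sequence, while the first 427 coding bases are identical. The ends are shown, from GENCODE M21, because the last 26 coding bases before the stop codon, in capitals, are what differs.
Myl6-201: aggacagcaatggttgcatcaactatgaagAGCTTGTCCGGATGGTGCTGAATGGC
Myl6-206: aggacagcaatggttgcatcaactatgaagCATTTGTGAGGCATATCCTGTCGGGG

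Myl6-201 stood at 31.4 and 22.4 TPM in replicates 1 and 2, and Myl6-206 at 20.5 and 22.5 TPM. Myl6-201 was thus ahead in replicate 1, and the forms were level in replicate 2. In the second tables Myl6-201 was listed at 0 in both libraries, with 70.0 and 40.9 TPM on Myl6-205 and 29.7 TPM on Myl6-206 in each. The use of either end therefore cannot be given from these tables.

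Myl6b, a longer relative of Myl6 on the same strand (128494157 to 128498685), was low. It stood at 2.53 TPM (replicate 1) and 3.88 TPM (replicate 2), from 81 and 124 expected counts. With a log2 ratio of 0.66 (95% interval 0.25 to 1.09, adjusted p = 0.00776 by the exact binomial test), it was higher in replicate 2, whereas its neighbour Myl6 was higher in replicate 1. The deduced proteins shared 76.2% of aligned residues.

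Myl9, the regulatory light chain of smooth muscle, was at 19.6 TPM (replicate 1) and 14.1 TPM (replicate 2). The gene, on chromosome 2 (156775420 to 156781658, plus strand), held 651 and 440 expected counts. Its log2 ratio came to -0.52 (95% interval -0.69 to -0.34, adjusted p = 6.86e-08 by the exact binomial test). Its protein shared 54.2% of aligned residues with Mylpf and 55.8% with Myl2. The RefSeq window of Myl9 held a CArG box that begins 161 bases before the start.

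Smooth muscle markers moved in part with Myl9. Of 8 listed, 7 were tested, 3 were called higher in replicate 1 (Acta2, Myh11 and Tagln) and 1 in replicate 2 (Synpo2). The summed level of the 8 was 160 and 144 TPM, of which Synpo2 alone was 82.1 and 83.7 TPM. Acta2, the smooth muscle actin, had a log2 ratio of -0.50, and Tagln, an actin-binding protein, one of -0.67. The 5 fibroblast markers, of which 4 were called higher in replicate 1 and 1 higher in replicate 2, summed to 245 and 219 TPM. Pericyte markers numbered 6 (median log2 ratio 0.11), of which 2 were called higher in replicate 2 and 1 higher in replicate 1. The median of 5 endothelial markers was 0.16, and 3 of these were called higher in replicate 2 and 1 higher in replicate 1. The part of these cell types in the difference of Myl9 was not tested. Myl9 over Myh11, the smooth muscle heavy chain, was 2.62 and 2.36 in TPM.

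Mylk2, the skeletal myosin light chain kinase, was the more abundant kinase of the pair. It lies on chromosome 2 (152911352 to 152923068, plus strand) and has 1 annotated transcript, of 613 codons. Its level was 282 TPM (replicate 1) and 201 TPM (replicate 2) (242 ± 57.8 TPM, SD, n = 2), from 27661 and 19675 expected counts. A log2 ratio of -0.44 (95% interval -0.47 to -0.42, adjusted p = 1.32e-238 by the exact binomial test) placed it higher in replicate 1. Mylpf, its substrate in fast fibres, exceeded it by a factor of 45.9 and 48.8 in TPM. The factor was 63.0 and 74.1 in the second tables, and 7.33 and 7.87 in expected counts, which are not corrected for length. The Mylpf records under 300 nt also bear on it, so its size depended on the processing.

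Mylk, the smooth muscle and nonmuscle kinase, was at 8.91 TPM (replicate 1) and 8.07 TPM (replicate 2), from 1113 and 1059 expected counts. The gene spans 34745210 to 35002420 of chromosome 16, plus strand. The log2 ratio was -0.02 (95% interval -0.15 to 0.10, adjusted p = 0.880 by the exact binomial test), a difference not past the threshold. Mylk2 over Mylk was 31.7 and 24.9 in TPM.

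The Mylk locus also encodes a short protein from its last exons, at the position of telokin, a smooth muscle protein that lacks the kinase domain. Mylk-203 encodes 159 residues, and all 477 of its coding bases equal the end of Mylk-201, which encodes the kinase of 1950 residues. Mylk-201 stood at 2.90 and 2.98 TPM, and Mylk-203 at 2.10 and 1.99 TPM. Of the gene's TPM, Mylk-201 held 32.5% and 37.0%, Mylk-203 held 23.5% and 24.7%, and 6 noncoding records held 43.9% and 38.3%. By the second tables Mylk-203 exceeded Mylk-201, with 33.2% and 35.5% against 25.5% and 26.6%. Which of the pair was higher thus depended on the kind of table.

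**Figure D4:**
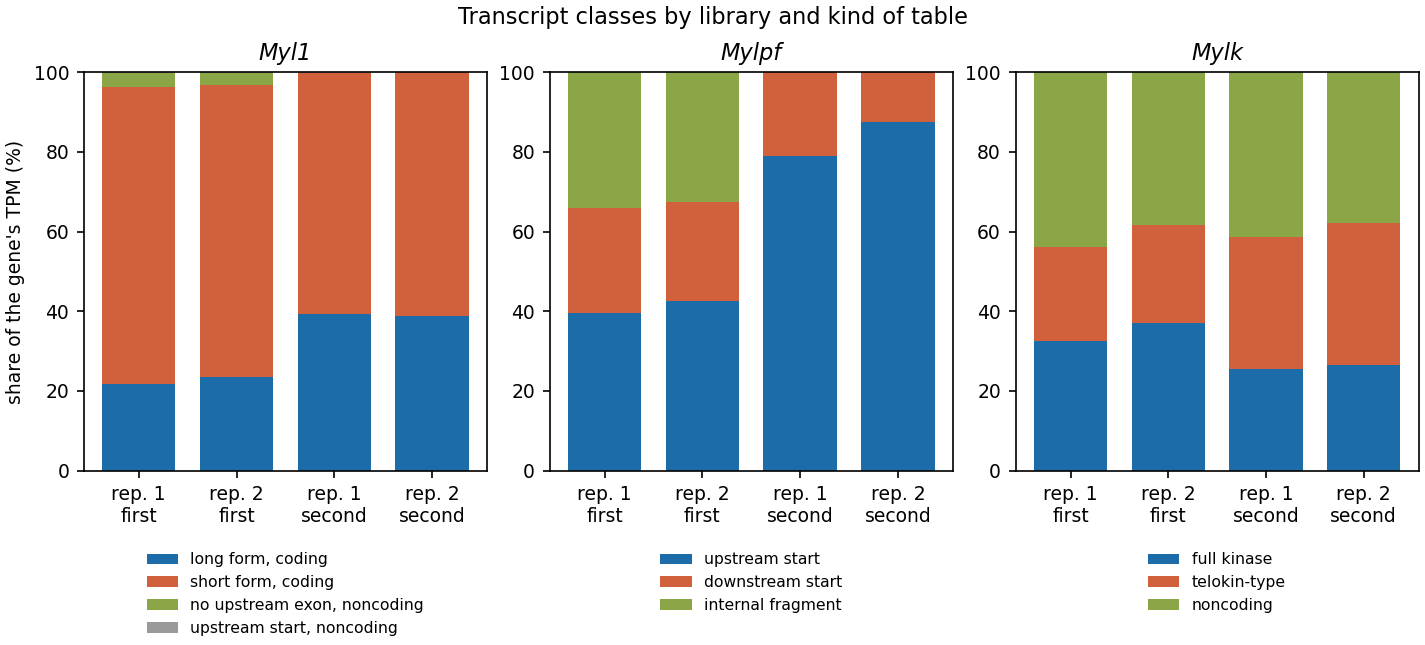
Share of each gene's TPM in percent by transcript class for Myl1, Mylpf and Mylk, with 1 bar for each library (rep. 1 and rep. 2) and kind of table (first and second). Bars of a kind of table resemble each other across the libraries, whereas the internal fragments of Mylpf hold 34.2% and 32.6% in the first tables and 0 in the second.

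Mylk4, a kinase of the same family, exceeded Mylk2 in both libraries, at 639 TPM (replicate 1) and 573 TPM (replicate 2). Of the summed TPM of Mylk, Mylk2, Mylk3 and Mylk4, Mylk2 held 30.3% and 25.6% (28.0 ± 3.32%, SD, n = 2) and Mylk4 held 68.7% and 73.2%. The second tables gave Mylk2 30.8% and 25.9%. Mylk3, the cardiac kinase, had 12 and 32 expected counts. Mylk4 had a log2 ratio of -0.09 (95% interval -0.10 to -0.07), nearer to 0 than that of Mylk2, and the intervals do not overlap.

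**Figure D5:**
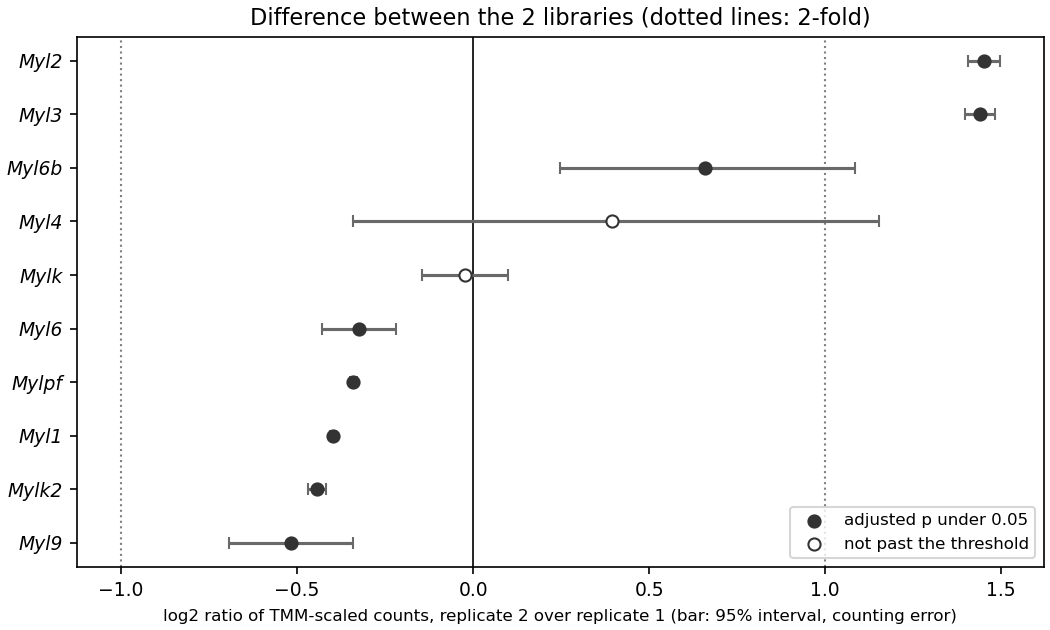
Log2 ratio of TMM-scaled expected counts, replicate 2 over replicate 1, for each of the 10 genes, with 95% intervals for counting error and dotted lines at 2-fold. Filled points passed an adjusted p of 0.05, and Myl2 (1.45) and Myl3 (1.44) lie beyond the line to the right.

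Related genes of the same machinery were taken from lists of light chains, kinases, phosphatase subunits and heavy chains. The 4 other light chain entries tested had a median log2 ratio of 0.66, and all 4 were called higher in replicate 2. Myl12a, a regulatory light chain of nonmuscle myosin, was at 118 and 192 TPM, above Myl9 and Myl6 in both libraries, with a log2 ratio of 0.77 (95% interval 0.70 to 0.83). Myl12b, its near copy, was listed under 2 gene identifiers at 26.6 and 42.9 TPM and at 6.67 and 9.47 TPM, and reads may be split among the 3 entries. Myl10 had 0 and 22 expected counts, and Myl7, the atrial regulatory chain, had 0 in both.

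The median log2 ratio of 11 other kinases was -0.04, and 2 were called higher in replicate 2 and 4 in replicate 1. Dapk2, a death-associated kinase, was at 9.49 and 10.7 TPM. Of 8 phosphatase genes, 1 was called in each direction, with a median of 0.02. Ppp1cb, the catalytic subunit, stood at 190 TPM in both libraries (log2 ratio 0.01, 95% interval -0.03 to 0.04). Ppp1r12b, a targeting subunit known from striated muscle, was at 67.4 and 75.2 TPM with a log2 ratio of 0.22, and Ppp1r14b, an inhibitor, at 49.9 and 48.1 TPM.

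Among 9 sarcomeric heavy chain genes the median log2 ratio was 0.78, and the test called 7 higher in replicate 2 and 2 higher in replicate 1. Myh4, the fastest isoform, stood at 11267 and 8431 TPM, Myh1 at 575 and 1076 TPM and Myh2 at 485 and 948 TPM. Mylpf and Myl1, which serve all fast isoforms, thus differed in the direction of Myh4 and against that of Myh1 and Myh2. Of 4 nonmuscle and smooth muscle heavy chain genes, Myh9 was at 14.7 TPM (replicate 1) and 14.8 TPM (replicate 2), Myh14 at 14.4 and 13.3 TPM, and Myh11 at 7.48 and 5.97 TPM. Myh10, named after its values were seen, was the 1 gene of these called higher in replicate 2, with a log2 ratio of 0.92.

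By mean TPM the order was Mylpf, Myl1, Myl2, Myl3, Mylk2, Myl6, Myl9, Mylk, Myl6b and Myl4. Of the 9 neighbouring pairs, the ranges over the libraries overlapped for 2 in the first tables (Myl2 with Myl3, and Myl3 with Mylk2). Such an overlap does not compare genes within a library. Within each library Myl2 was above Myl3 in TPM in both kinds of table, although not in expected counts (ratios 0.886 and 0.892). Myl3 over Mylk2 was 0.733 in replicate 1 and 2.71 in replicate 2, so this pair is not ordered. In the second tables Mylpf with Myl1 and Myl2 with Myl3 overlapped. Counting ranges over both kinds of table together, 4 pairs overlapped, with Myl6b and Myl4 added. Together the 10 genes held 2.37% and 1.86% of gene TPM in replicates 1 and 2.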

How the data were processed

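The 10 genes and the related and marker lists were chosen with earlier results of these data known. The authors deposited 2 kinds of table. Per the file headers, expected counts, TPM, posterior standard deviations and posterior mean TPM fill the first kind, for genes and transcripts, while the second lists estimated counts and TPM of transcripts. Posterior values deposited by the authors were treated as scores. The deposited notes give mm10 and GENCODE M21. Neither the program behind each table nor the use of strand in counting is given in the sources used here. Antisense genes overlapping the 10 genes held at most 24 expected counts. The reference is of the B6 type and CAST alleles, which may align less well to it, were not separated. Transcripts were shortened to an effective length by 99 nt in the first tables and, where long, by 343 or 338 nt in the second, so short records can differ between them.

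After rounding to whole numbers, expected counts were scaled by TMM (edgeR 4.0.16, R 4.3.3). The 14827 genes with 20 or more counts over both libraries were compared between them by an exact conditional binomial test, two-sided (SciPy 1.17.1), with Benjamini-Hochberg adjustment over all of them. Log2 ratios had 0.5 added to each count, and their intervals are exact Clopper-Pearson intervals at 95%. Intervals, and the allowance of 3 reads behind a count of 0, cover counting error only. With 1 group, edgeR's quasi-likelihood test could not be fitted. Protein identities come from Biopython 1.88 alignments of translated GENCODE M21 coding sequences, and promoter windows and starts from RefSeq. Named genes are all 10 genes, Mylk3 and Mylk4, marker genes, the 3 highest in TPM of each related list, and transcripts with at least 10% of their gene's TPM in any library or table. Some genes that this rule names are not reported here. Alternatives were DESeq2 1.42.0 size factors, library totals, spike-in totals, other count minimums, a pseudocount of 5, the second tables, posterior means, protein-coding TPM alone, expected counts and leaving out each library.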

Additional observations from a re-analysis of the deposited data

How the results depend on the processing

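The counts of 8 genes called and 2 past 2-fold were the same under DESeq2 size factors, library totals, spike-in totals, the second tables, no minimum count and a minimum of 200 (which left 9 genes tested). Of 50 alternative log2 ratios 49 kept their direction and their side of the threshold, with shifts of at most 0.07, and the exception was Mylk, which was not called and went from -0.02 to 0.028 (adjusted p = 0.845) under spike-in totals. The mean ratio of regulatory over essential light chain TPM, 1.37, moved to 1.26 in the second tables, 0.831 with expected counts and 0.935 without Mylpf transcripts under 300 nt. The long-form share of coding Myl1 TPM moved from 23.4% to 39.0% in the second tables. There it was 15.3% without Myl1-206, 62.3% without Myl1-207 and 31.9% with Myl1-201 and Myl1-202 alone. These settings were chosen after seeing the data, and the cause was not tested. Leaving out a library in turn gave 92.5% to 97.7% for the Mylpf share, 92.8% to 97.9% for the Myl1 share, 1.34 to 1.40 for the ratio of regulatory over essential chains, 25.6% to 30.3% for the Mylk2 share and 22.6% to 24.3% for the long-form share. All 10 mean levels were higher by more than the SD between libraries in the second tables and in TPM of protein-coding genes alone. Mean TPM of the second tables was 21530 for Mylpf, 17833 for Myl1, 1576 for Myl2, 696 for Myl3, 319 for Mylk2, 146 for Myl6, 23.2 for Myl9, 12.9 for Mylk, 4.40 for Myl6b and 2.58 for Myl4, against 11374, 8355, 552, 375, 242, 60.6, 16.8, 8.49, 3.21 and 1.34 in the first. Over protein-coding genes alone, Mylpf stood at 24314 TPM and Myl4 at 2.87 TPM. No paired analysis was possible because the study has 1 group. Depth limits Myl4 (29 and 37 expected counts) most, and transcript shares are limited by the kind of table.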
